A study of Arabidopsis thaliana with 6 samples.

Results

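The pectin methylesterase family of Arabidopsis thaliana was followed in whole seedlings of the Columbia background. The members were 60 listed loci, and a locus was read where the platform annotation gave a probe set (a group of short probes on the array) to that gene alone. This left 39 members, each with 1 probe set, among 13286 genes that could be read in this way and 22746 probe sets in all. The other 21 members were not analysed here. Another 2 probe sets named 4 members in pairs and were not used, because their signal cannot be given to 1 gene. No probe set of the 39 carried a suffix that marks possible cross-hybridisation.

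Seeds of both groups lay on filter paper wetted with 1% DMSO, stood in the dark at 4 °C for 2 days, and were moved to 25 °C under a day of 12 h of light. The mock group had DMSO alone. The treated group also had 100 µM scutellarin, a flavone glucuronide of skullcaps and other plants, for 10 days. Each group held 3 samples of 100 whole seedlings aged 10 days, which the labels call biological replicates from independent experiments, and each sample was read on 1 Affymetrix ATH1 array.

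Pectin methylesterases are secreted enzymes that cut methyl groups from homogalacturonan, the main pectin of the plant cell wall. Pectin stripped of methyl groups in blocks can bind calcium and stiffen the wall, and it is also what polygalacturonases and pectate lyases cut. Inhibitor proteins bind the enzymes and hold them back. Root hairs and pollen tubes, which both grow at their tip, are known for members of their own, so the family was described in 3 classes set from general knowledge of where the genes are used: 2 root hair members, 16 pollen and anther members, and 42 vegetative or other members. Of these, 1, 9 and 29 had a probe set of their own.

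The values are array intensities, and detection calls were not used, so a low intensity cannot be told from background. Probe sets in the lowest 30% by mean log2 intensity were left out of the test. The lowest kept probe set had a mean corresponding to an intensity of 34.8, called the filter level below. Of the 39 members, 15 lay above it: the root hair member, 14 of 29 vegetative or other members, and 0 of 9 pollen and anther members. Median intensities of the 6 arrays lay between 144.8 and 162.3. Changes were tested in limma, a linear model fitted over all 15923 kept probe sets, and a gene was said to rise or fall at a Benjamini-Hochberg adjusted p under 0.05.

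Scutellarin-grown seedlings had higher transcript levels of 5 of the 15 members above the filter, and no member fell. The risers were AT5G04960, AT3G47400, AT2G47550, AT1G02810 and AT3G10720, with log2 changes between 0.55 and 5.36. Over all 15923 kept probe sets 19.4% changed, of which the risers were 10.3% and the fallers 9.11% of the total. Of the 15 members, these 5 had groups that did not overlap with scutellarin higher, as did 18.6% of kept probe sets. The 5 were called on the same values, so the separation adds no support to the calls. In limma, 1 of the 15 members had a negative change at an unadjusted p under 0.05, and 0 fell under each alternative setting run. The median log2 change of the 15 members was 0.20, beside -0.04 over all kept probe sets. AT5G04960 and AT3G47400 lay below the filter level in the mock mean and passed the filter through the scutellarin arrays. The count of 5 of 15 and the median of 0.20 therefore describe the members and were not used to set the family apart. In the fit with no filter, 7 of the 39 members rose and 0 fell, beside 6.9% and 5.32% of all 22746 probe sets. There the 39 had a median of -0.01 (all probe sets, -0.05), with 19 positive and 20 negative values.

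**Figure D1:**
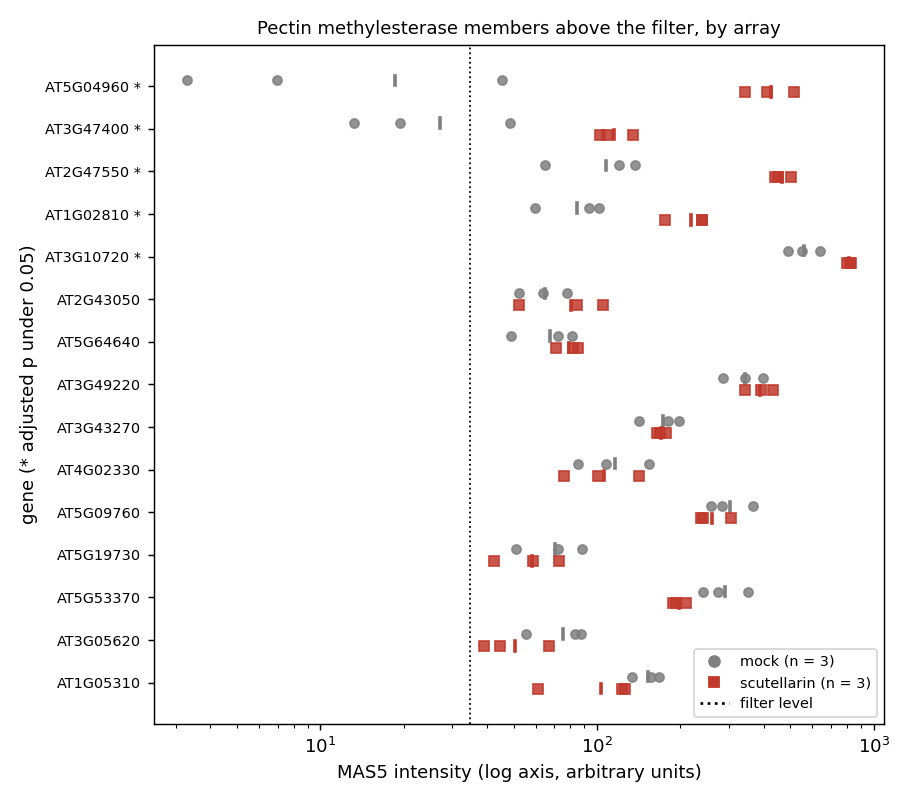
Intensity (horizontal log axis) of the 15 pectin methylesterase members above the filter, 1 row per gene ordered by log2 change; grey circles are the 3 mock arrays, red squares the 3 scutellarin arrays, short bars the group means and the dotted line the filter level of 34.8. The 5 starred genes passed the test, and in each of them the lowest scutellarin array lies above the highest mock array.

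AT5G04960, the root hair member, had intensities of 6.95, 45.5 and 3.29 in the mock arrays, replicates 1 to 3. On the scutellarin arrays, in the same order throughout, it had 343.6, 409.9 and 516.8. The scutellarin arrays were all far above the mock arrays, which themselves differed widely near the low end of the scale. The log2 change was 5.36 ± 0.72 (SE, n = 3 per group, adjusted p = 0.000330 in limma), with a 95% interval from 3.80 to 6.93. Because the mock values are low, the size of the fold depends on the scale: with 32 added to each intensity before log2, the change was 3.25. It was 6.45 without mock replicate 2 and 4.55 without mock replicate 3. In whole seedlings, more cells of a type and more RNA per cell cannot be told apart.

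The root hair markers that could be read rose as well. Of 10 listed root hair marker genes, 2 had a probe set of their own, and both rose. Over all kept probe sets, 10.3% rose, and the other listed markers were not read. EXPA7 (AT1G12560), a root hair expansin gene, had 1.81, 7.21 and 22.0 in the mock arrays and 253.0, 206.5 and 315.8 in the scutellarin arrays, a log2 change of 5.27 ± 0.72 (SE, adjusted p = 0.000380 in limma). EXPA18 (AT1G62980), another, had 14.7, 30.7 and 8.89 in the mock arrays and rose by 4.82 ± 0.40 (adjusted p = 9.42e-06). All mock values of both genes lay below the filter level, so both passed the filter through the scutellarin arrays and the count of 2 of 2 is a description. Their fold sizes depend on the scale too: with 32 added before log2, the changes of EXPA7 and EXPA18 were 2.79 and 3.29. The change of EXPA7 was 4.34 without mock replicate 1 and 6.14 without mock replicate 3. The summed intensity of both genes lay between 16.5 and 37.9 in the mock arrays and between 619.5 and 864.2 in the scutellarin arrays. Their part in the rise of AT5G04960 was not tested. RHS12 (AT3G10710), the other listed root hair member, whose RefSeq synonym is root hair specific 12, was not analysed here.

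AT5G04970 lies next to AT5G04960 in the RefSeq gene order, with no coding gene between them. It was not assigned to root hairs in the list. Its intensities were 1.65, 3.18 and 2.43 in the mock arrays and 70.5, 77.7 and 110.3 in the scutellarin arrays. The groups did not overlap, and all 3 scutellarin arrays were above the filter level while all 3 mock arrays were close to the floor of the scale, which is 1. Its mean log2 intensity put it below the filter, so its test comes from the limma fit with no filter over all 22746 probe sets. There it rose by 5.18 ± 0.72 (SE, adjusted p = 0.000877). With 32 added before log2 as well, the change was 1.76, so the sign and the call held while the fold size depended on the scale.

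AT5G51490 showed the same kind of values and was singled out after they were seen. It had 1.76, 3.19 and 5.0 in the mock arrays and 53.0, 47.8 and 73.2 in the scutellarin arrays. All 3 scutellarin arrays lay above the filter level and all 3 mock arrays near the floor. In the limma fit with no filter it rose by 4.23 ± 0.76 (SE, adjusted p = 0.00406), and by 1.34 with 32 added. These were the 2 members called among the 24 below the filter. In that fit, 2.13% of all 6823 probe sets below the filter rose and 0.528% fell.

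Of the 14 vegetative or other members above the filter, 4 rose, beside 10.3% of all kept probe sets. Among these 4, AT3G47400 passed the filter through the scutellarin arrays, so the count is a description. AT2G47550 had 64.7, 137.6 and 119.5 in the mock arrays and 441.0, 452.4 and 502.5 in the scutellarin arrays. Its scutellarin arrays lay close together and well above the mock arrays. The log2 change was 2.19 ± 0.26 (SE, adjusted p = 0.000127 in limma), a fold of 4.55, and its mock values were all above the filter level.

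AT3G47400 had 19.4, 48.4 and 13.2 in the mock arrays and 102.2, 108.7 and 135.3 in the scutellarin arrays. It rose by 2.31 ± 0.47 (SE, adjusted p = 0.00522 in limma), and by 1.36 with 32 added before log2. A listed inhibitor gene, AT3G47380, lies close by in the RefSeq gene order, with 1 coding gene between them. This inhibitor gene rose too, as given below with the inhibitors.

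AT1G02810 had 59.6, 101.2 and 93.7 in the mock arrays and 175.3, 239.9 and 239.4 in the scutellarin arrays. The groups were separate, and the log2 change was 1.39 ± 0.26 (SE, adjusted p = 0.00318 in limma), a fold of 2.61.

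AT3G10720 lies next to RHS12 in the RefSeq gene order. It had 491.4, 637.8 and 552.2 in the mock arrays and 822.6, 827.8 and 800.9 in the scutellarin arrays. The scutellarin arrays were nearly equal and all above the mock arrays. The log2 change of 0.55 ± 0.14 (SE, adjusted p = 0.0182 in limma) was the smallest of the 5 risers. The call was lost without mock replicate 1 (adjusted p = 0.0602), without mock replicate 3 (0.0572) and with no variance trend (0.0509). The other 4 risers kept their call under each alternative that included them.

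**Figure D2:**
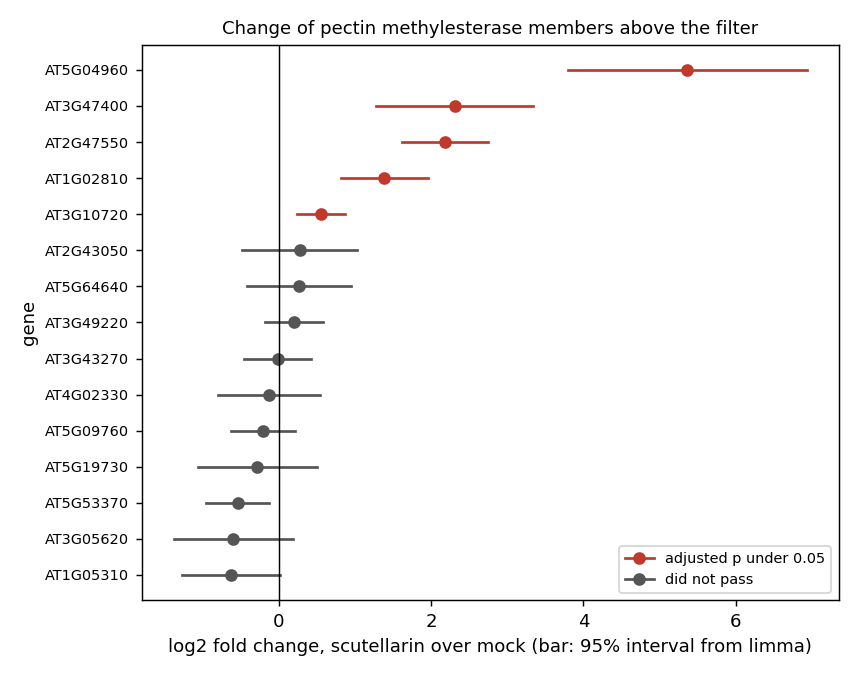
Log2 fold change of scutellarin over mock (horizontal axis) for the 15 pectin methylesterase members above the filter, with 95% intervals from limma as bars; red marks an adjusted p under 0.05 and grey the genes that did not pass. The 5 risers run from AT3G10720 at 0.55 to AT5G04960 at 5.36, and the other 10 lie between -0.63 and 0.28.

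The other 10 vegetative members did not pass, with log2 changes between -0.63 and 0.28, of which 3 were positive and 7 negative. Their intensities lay between 39.1 and 431.9. For 6 of the 10, the 95% interval stayed within a change of 1 on the log2 scale in both directions, and for 4 it reached beyond, to -1.38 at the lowest and 1.03 at the highest. None of the 10 passed under any alternative run, where the lowest adjusted p was 0.0581.

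Of these, 2 had groups that did not overlap, both lower with scutellarin. Among all kept probe sets, 18.6% had groups that did not overlap with scutellarin lower. PMEPCRF (AT5G53370), named in RefSeq for a pectin methylesterase PCR fragment, had 274.5, 350.8 and 241.6 in the mock arrays and 188.5, 193.3 and 209.6 in the scutellarin arrays. Its log2 change of -0.54 ± 0.19 (SE) came with an adjusted p of 0.0690 in limma. AT1G05310 had 134.2, 166.9 and 156.0 in the mock arrays and 61.1, 123.2 and 126.3 in the scutellarin arrays, with scutellarin replicate 1 well below the other two. Its log2 change was -0.63 ± 0.30 (SE, adjusted p = 0.163 in limma).

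The remaining 8 had overlapping groups. AT3G43270 was nearly level, at 142.2, 179.7 and 198.0 in the mock arrays and 164.3, 177.3 and 168.4 in the scutellarin arrays. Its log2 change was -0.01, with a 95% interval from -0.46 to 0.43. AT3G49220 had 285.3, 341.8 and 396.5 against 431.9, 392.2 and 343.7, a log2 change of 0.20 with an interval from -0.18 to 0.58. AT5G09760 had 258.9, 282.5 and 366.0 against 241.8, 303.7 and 238.2, a log2 change of -0.20 with an interval from -0.62 to 0.21. For these 3 genes the intervals leave out a 2-fold change in either direction.

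The changes of the other 5 were ATPMEPCRD (AT2G43050) at 0.28 ± 0.35 (SE), AT5G64640 at 0.27 ± 0.31, PME41 (AT4G02330, symbol ATPMEPCRB) at -0.13 ± 0.31, AT5G19730 at -0.28 ± 0.36 and AT3G05620 at -0.59 ± 0.36. Their standard errors were wider than those of the 3 genes before, and none of their groups was separate. AT4G02330, with 107.9, 154.0 and 85.2 in the mock arrays and 101.0, 142.0 and 75.8 in the scutellarin arrays, spread more within each group than between them.

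The pollen and anther members stayed low in both groups. All 9 with a probe set lay below the filter, and 51 of their 54 single values were below the filter level. AT3G06830 had 38.9, 11.3 and 18.4 in the mock arrays and 14.3, 53.3 and 20.1 in the scutellarin arrays. AT4G15980 had 15.3, 27.8 and 40.8 in the mock arrays and 28.2, 6.04 and 12.0 in the scutellarin arrays. In both genes, the arrays of 1 group differed among themselves by more than the groups did.

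The neighbours AT5G07420 and AT5G07430 stayed near the floor of the scale on every array. AT5G07420 ranged from 2.89 to 3.18 in the mock arrays and from 1.00 to 5.02 in the scutellarin arrays, and AT5G07430 from 1.69 to 4.51 and from 1.27 to 1.84. AT3G17060 was the 1 member of the class whose groups did not overlap, at 2.46, 4.83 and 3.06 in the mock arrays and 17.4, 4.93 and 5.17 in the scutellarin arrays. Below the filter, 7.62% of all probe sets had groups that did not overlap with scutellarin higher. In the limma fit with no filter, 2 of the 9 had positive and 7 negative changes, and none passed (lowest adjusted p = 0.462). Of 15 listed pollen marker genes, 4 had a probe set of their own (ACT12, ANX1, ANX2 and MGH3), and all 4 lay below the filter, with summed intensities between 8.77 and 61.8 in the mock arrays and between 35.1 and 83.7 in the scutellarin arrays.

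**Figure D3:**
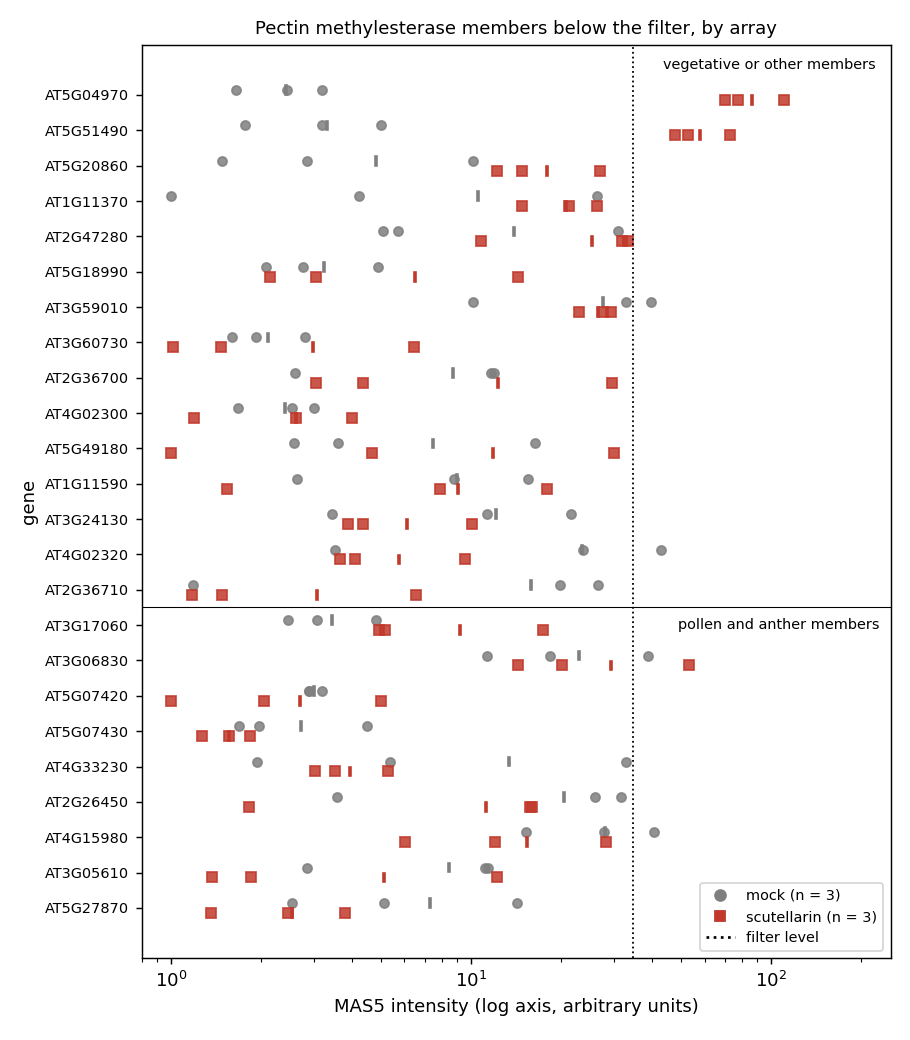
Intensity (horizontal log axis) of the 24 pectin methylesterase members below the filter, with vegetative or other members above the line and pollen and anther members beneath it; grey circles are the 3 mock arrays, red squares the 3 scutellarin arrays, short bars the group means and the dotted line the filter level of 34.8. The scutellarin arrays of AT5G04970 and AT5G51490 stand to the right of the dotted line, while 18 of the 24 members stay to its left on all 6 arrays.

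Another 13 vegetative or other members lay below the filter without a call. AT5G20860 was the 1 of these with groups that did not overlap, with scutellarin higher, as for 7.62% of all probe sets below the filter. It had 10.2, 2.85 and 1.48 in the mock arrays and 26.8, 14.8 and 12.2 in the scutellarin arrays. Its change in the fit with no filter was 2.28 ± 0.98 on the log2 scale (SE, adjusted p = 0.168 in limma), and 0.44 with 32 added. AT4G02320 leaned the other way, with 23.6, 3.53 and 42.9 in the mock arrays and 3.67, 9.52 and 4.12 in the scutellarin arrays, at an adjusted p of 0.405. PME61 (AT3G59010, also named PME35 in RefSeq) was at 10.2, 32.9 and 39.8 in the mock arrays and 27.6, 29.2 and 22.9 in the scutellarin arrays. For members below the filter, the median SD of log2 intensity within a group was 1.05, against 0.28 for those above it, so changes of these low members were measured with much less precision.

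Some members sit side by side in the genome. The 60 loci held 14 pairs with at most 1 coding gene between them, and both genes of 6 pairs had a probe set of their own. AT5G04960 and AT5G04970 were the 1 pair of the 6 with a called change, and both rose. The call of AT5G04960 came from the fit with the filter, where 10.3% of kept probe sets rose. That of AT5G04970 came from the fit with no filter, where 2.13% of the probe sets below the filter rose. The pairs AT2G36700 and AT2G36710, AT5G07420 and AT5G07430, and AT4G02300 and AT4G02320 lay below the filter with no call. In the pairs AT3G05610 and AT3G05620, and AT4G02320 and AT4G02330, the second gene lay above the filter and did not pass.

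Genes that act on the same pectin were read from lists of their own. Of 15 listed inhibitor genes, whose proteins hold pectin methylesterases back, 9 had a probe set of their own and 7 were above the filter. Of these, 1 rose, 3 fell and 3 stayed short of the threshold, and the median log2 change was -0.57, beside 10.3% of kept probe sets that rose, 9.11% that fell and a median of -0.04. AT3G47380 rose by 1.82 ± 0.37 (SE, adjusted p = 0.00499 in limma), from 52.5, 130.5 and 40.5 in the mock arrays to 265.5, 226.9 and 202.4 in the scutellarin arrays. AT1G14890 was lower in all 3 scutellarin arrays. It fell from 5128, 5340 and 5185 to 2567, 2505 and 3382, a log2 change of -0.90 ± 0.13 (adjusted p = 0.000617).

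Another 3 inhibitor probe sets lay below the filter, and none passed in the limma fit with no filter. AT4G25250 had 26.6, 26.1 and 4.01 in the mock arrays and 58.1, 48.2 and 120.6 in the scutellarin arrays, a log2 change of 2.31 ± 0.78 (SE, adjusted p = 0.0818 in limma). APPB1 (AT4G24640) had 2.17, 1.64 and 1.55 in the mock arrays and 3.85, 21.8 and 29.8 in the scutellarin arrays, a log2 change of 2.94 ± 1.07 (adjusted p = 0.104). The groups of these 2 did not overlap, with scutellarin higher, as for 7.62% of all probe sets below the filter. In that fit 1 of all 10 inhibitor probe sets rose and 3 fell, 4 changes were positive and 6 negative, and the median was -0.05, equal to that of all probe sets at this rounding.

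AT1G62760 and AT5G20740, both listed inhibitor genes, changed by -0.91 ± 0.23 and -0.71 ± 0.20 (SE, adjusted p = 0.0177 and 0.0254 in limma). AT1G62760 was no longer called when mock replicate 1, mock replicate 3 or scutellarin replicate 1 was left out (adjusted p = 0.0552 to 0.0657). A second probe set of AT1G62760 lay below the filter, between 1.53 and 8.21 on all arrays, with overlapping groups. Its change of 1.38 did not pass in limma with no filter (adjusted p = 0.456) and had a 95% interval from -0.89 to 3.66, so its sign could not be read. AT5G20740 was no longer called when mock replicate 1, mock replicate 3, scutellarin replicate 2 or scutellarin replicate 3 was left out (adjusted p = 0.0552 to 0.107).

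Pectate lyases cut demethylated pectin. Of 24 listed genes, 22 had a probe set of their own and 12 probe sets were above the filter. Here 3 rose, 1 fell and 8 stayed short of the threshold, and the median log2 change was 0.36. Of all kept probe sets 10.3% rose and 9.11% fell, with a median of -0.04. AT3G24670 rose from 109.5, 114.0 and 139.4 to 382.0, 370.5 and 456.2, a log2 change of 1.74 ± 0.19 (SE, adjusted p = 6.35e-05 in limma). AT1G04680 rose by 1.52 ± 0.19 (adjusted p = 0.000174) and AT3G07010 by 1.29 ± 0.23 (adjusted p = 0.00237). AT5G63180 fell, at -0.76 ± 0.18 (adjusted p = 0.0126). Another 11 pectate lyase probe sets lay below the filter and none passed in limma with no filter; their groups did not overlap in 1 with scutellarin higher and in 2 with scutellarin lower. Below the filter, groups without overlap were found for 7.62% of all probe sets with scutellarin higher and for 7.34% with scutellarin lower.

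Polygalacturonases cut the same demethylated pectin. Of 10 probe sets of the 16 listed genes, 3 were above the filter and none passed in limma, with 0 at an unadjusted p under 0.05. Of all 15923 kept probe sets, 19.4% passed and 5269 had an unadjusted p under 0.05, so 3 probe sets are too few to read this count. The other 7 lay below the filter, and none passed with no filter. In 2 of these 7 the groups did not overlap, with scutellarin lower and all 3 mock arrays above the filter level. Below the filter, 7.34% of all probe sets had groups that did not overlap with scutellarin lower. AT1G60590 had 79.4, 36.9 and 41.6 in the mock arrays and 1.75, 23.8 and 23.6 in the scutellarin arrays, a log2 change of -2.32 with a 95% interval from -4.45 to -0.18 (adjusted p = 0.158 in limma with no filter). AT3G15720 had 37.5, 56.7 and 89.7 and then 18.1, 33.0 and 12.3, a change of -1.57 with an interval from -2.87 to -0.26 (adjusted p = 0.119). AT1G70500 leaned the other way with overlapping groups. Its change was 1.92 with an interval from 0.12 to 3.71 (adjusted p = 0.165 in limma with no filter). In that fit 3 of the 10 changes were positive and 7 negative. Above the filter, groups did not overlap for AT1G80170, with scutellarin higher, and AT1G48100, with scutellarin lower. Among all kept probe sets, 18.6% had groups that did not overlap with scutellarin higher, and 18.6% with scutellarin lower.

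Few genes of pectin synthesis could be read: 2 of the 19 listed had a probe set of their own. AT3G49720, listed with the genes that add methyl groups to pectin, rose by 0.55 ± 0.16 (SE, adjusted p = 0.0263 in limma). AT3G49720 did not pass when mock replicate 2, mock replicate 3 or scutellarin replicate 1 was left out (adjusted p = 0.0577 to 0.119), nor in the fit without a variance trend (0.0751). GAUT15 (AT3G58790), a galacturonosyltransferase gene, changed by -0.70 ± 0.30 and did not pass (adjusted p = 0.126), though it did without mock replicate 1 (0.0478) or scutellarin replicate 2 (0.0377). Of 3 listed subtilase genes, whose proteases act on pectin methylesterases or their inhibitors, ARA12 (AT5G67360) fell, at -0.55 ± 0.13 (adjusted p = 0.00940), a call lost without mock replicate 3 (0.0512). SBT3.5 (AT1G32940) and S1P (AT5G19660) did not pass, at 0.29 ± 0.25 and 0.26 ± 0.23. The calls in these short lists stand beside 10.3% of all kept probe sets that rose and 9.11% that fell.

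**Figure D4:**
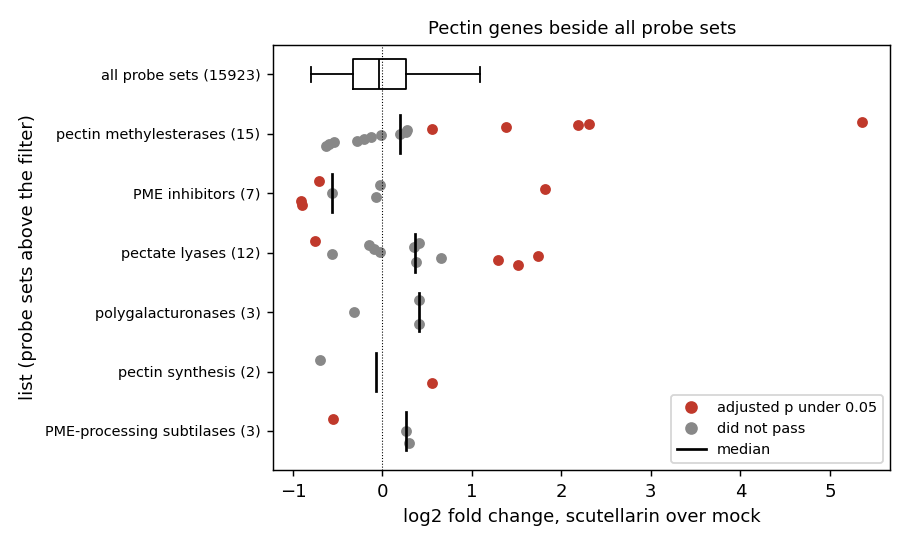
Log2 fold change of scutellarin over mock (horizontal axis) for probe sets above the filter; the box for all 15923 probe sets shows the median and quartiles with whiskers at the outer 5% on each side, and each dot below it is 1 probe set, red where the adjusted p was under 0.05, with a black bar at the list's median. The 15 pectin methylesterases hold 5 red dots, all on the right, of which 2 passed the filter through the scutellarin arrays; the 7 inhibitors hold 1 on the right and 3 on the left; of all kept probe sets 10.3% rose and 9.11% fell. Probe sets below the filter are not plotted, and no difference between the lists was tested.

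Of 4 listed root and leaf marker genes, 2 had a probe set of their own, and both changed, beside 19.4% of all kept probe sets. The root gene PYK10 (AT3G09260), for a beta-glucosidase, rose by 0.99 ± 0.13 (SE, adjusted p = 0.000230 in limma), and the light harvesting gene LHCB4.3 (AT2G40100) stood at -0.82 ± 0.17 (adjusted p = 0.00513). The part of root content in the changes of the pectin genes was not tested.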

How the data were processed

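The deposited intensities are linear, 1 per probe set and array, and came from MAS5 per the submitters' processing notes, with no version given in the sources used here. Their lowest value was 1, and means trimmed by 2% at each end lay between 493.9 and 495.1, so the arrays had been scaled. Values were log2-transformed with no further normalization. Of 22746 probe sets, 13513 named 1 gene, 503 several and 8730 were unlisted; 13436 of the 13513 matched the RefSeq gene table (TAIR10.1) by gene ID. No coordinates are printed, since the labels name no genome build.

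Groups were compared with limma 3.58.1 (R 4.3.3; lmFit, eBayes with a variance trend, two-sided), tested on simulated data. With 200 changed probe sets among 15923 simulated, 50% of 2-fold and 97% of 4-fold changes were called, so a 2-fold change can be missed. In the data 3094 probe sets were called, many more than the 200 simulated. The adjusted p depends on that number, so the simulated rates need not be those of the real fit. Replicate numbers did not pair the arrays, and the fit had no block. The number of arrays limits the precision.

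Members, classes and gene lists were chosen with earlier results of these data known. Described in full are the root hair member, members past the threshold with their neighbours, the highest of each class, and up to 4 changed genes of each other list; AT5G51490 and the genes that did not pass were named after their values were seen. Planned lists by gene description and comparisons of protein and promoter sequences were not made. Values for members below the filter come from an added fit with no filter. Figures were drawn with matplotlib 3.10.9.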

Additional observations from a re-analysis of the deposited data

How the results depend on the processing

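The fit was repeated after quantile normalization or median centring, without a filter or with a filter at 50% in place of 30%, and with 32 added to the intensities. It was also repeated without a variance trend, with a robust prior, with the replicate block, without each array, and without probe sets open to cross-hybridisation. The 5 risen members became 2 under the 50% filter, since that filter removes AT5G04960, AT3G47400 and AT1G02810, became 7 with no filter, and were between 4 and 5 without 1 array. No member fell under any of these. All 3094 changed probe sets became 2009 without mock replicate 2 and lay between 2009 and 2833 without 1 array. The replicate block gave 2923 changed probe sets with 5 members risen and 0 fallen. Deviations from the group means correlated at -0.04, -0.09 and 0.11 between arrays of the same number, and mock replicate 1 correlated best with scutellarin replicate 2 (0.24), so the numbers were not read as pairs. Low intensities limit the fold sizes of AT5G04960, AT5G04970, AT5G51490, AT3G47400, EXPA7 (AT1G12560) and EXPA18 (AT1G62980): over all alternatives run their log2 changes lay between 3.25 and 6.45, 1.76 and 5.40, 1.34 and 4.59, 1.36 and 2.84, 2.79 and 6.14, and 3.29 and 5.30. Settings that join no filter with another choice, and those for genes outside the family, were added after seeing the data.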
